A study of Mus musculus with 8 samples.

Results

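The genes described here build the contacts between epithelial cells: 16 claudins, 9 other tight junction and polarity genes, 4 cadherins with the adhesion protein gene Epcam, 9 genes of the desmosome and its linkers, and Esrp1 and Esrp2, which encode splicing factors of epithelial cells. They are 41 genes chosen by name, of 22911 genes on the array, and were found through the RefSeq accession of each probe. All 41 had a probe, and 39 of them were among the 16013 genes bright enough to test. The RNA came from mouse kidneys at embryonic day 14.5, either wild type or mutant, where the mutant was a conditional Mdm4 knockout made with a Hoxb7Cre transgene. Hoxb7 drives Cre in the ureteric bud and its collecting duct descendants, so cells of other kidney lineages do not carry the deletion. There were 4 RNAs of each genotype, hybridised as 4 pairs, and each pair was run on 2 arrays with the dyes exchanged (n = 4 pairs). The labels do not give the strain, the Cre status of the wild type, or whether an RNA came from 1 embryo or several, so the p-values reflect only how much the 4 pairs differ from each other, and some of that may be technical.

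Tight junctions are belts of claudins and occludin strands that seal the space between neighbouring epithelial cells and set which ions may pass, while cytoplasmic scaffolds tie the strands to actin. Adherens junctions hold cells together through cadherins, and desmosomes do so through cadherins linked to keratin filaments. In the kidney the claudins present differ from segment to segment, and the ureteric bud is a polarised epithelium from its start, whereas nephron epithelium forms later from mesenchyme.

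All values are log2 ratios with the mutant as numerator, so that negative values are lower in the mutant, and errors are standard errors from limma's fit across all genes. No junction gene passed limma's test at an adjusted p of 0.05, and neither did any other gene (0% of the 16013). The smallest adjusted p of all genes was 0.0750, and 1699 genes had an unadjusted p under 0.05. Of the junction genes, 29 had a mean below 0 and 10 had a mean above 0, where 46.1% of all genes were below 0. Their median was -0.07, against 0.01 for all genes. In whole kidneys, fewer cells of a type and less RNA per cell cannot be told apart in such ratios. Centring each array on its median instead of loess turned the balance to 14 below and 25 above 0, on a scale where the median of all genes was 0.14 and 18.2% of genes were below 0. The whole array lay higher on that scale, so a sign turned there is not a change against other genes. After each pair was centred again on the tested genes (called recentred here), the balance was 28 below and 11 above.

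At an unadjusted p under 0.05, 3 junction genes were lower (Dsp, Esrp1 and Cldn8), beside 3.60% of all genes. The same limit was met by 2 higher junction genes (Cldn16 and Cdh6), beside 7.01% of all genes. None was lower in all 4 pairs, where 7.84% of all genes were, and 3 were higher in all 4 pairs (Cldn16, Cdh6 and Cldn19), where 12.1% of all genes were. Cldn16 entered the test through the mutant channels alone, and where all 16 channels had to be above background these counts of higher genes were 1 and 2. The count of higher genes lay near or under the background by either measure. Cdh6 was the 1 junction gene with the same sign on all 8 arrays.

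Pair 3 differed in sign from the other pairs. In pairs 1, 2 and 4 the junction genes were mostly below 0, with 29, 34 and 25 of the 39 there, and in pair 3 only 3 were. Of all genes tested, 53.5%, 50.8% and 45.5% were below 0 in pairs 1, 2 and 4, and 39.3% in pair 3. The median of the junction genes was -0.27, -0.17, 0.25 and -0.09 in pairs 1 to 4. The same split appeared on both arrays of a pair: with the mutant RNA in Cy5, 29, 26, 3 and 22 genes were below 0 in pairs 1 to 4, and with the mutant RNA in Cy3, 31, 32, 4 and 24. In all, 21 junction genes were lower in pairs 1, 2 and 4, and each of these 21 was higher in pair 3. Among all genes, 2762 were lower in pairs 1, 2 and 4, and 54.6% of those were higher in pair 3. Pair 3 held the highest value of the 4 pairs for 31 of the 39 junction genes.

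**Figure D1:**
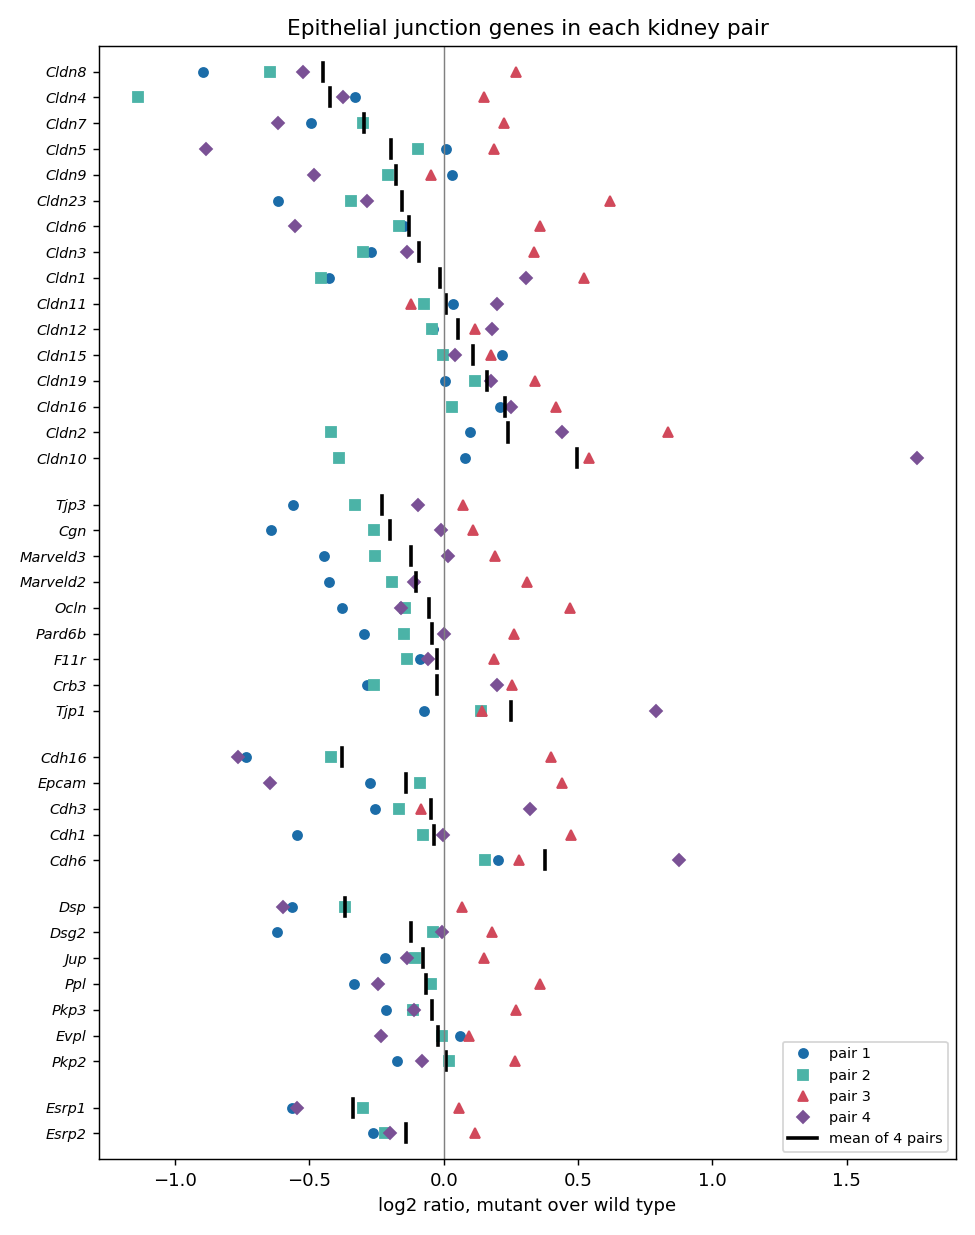
Log2 ratio of mutant over wild type (x axis) for each of the 39 junction genes tested, with 1 point per kidney pair and a bar at the mean of 4 pairs. Genes are grouped from top to bottom as claudins, other tight junction and polarity genes, cadherins with Epcam, desmosome and linker genes, and splicing factors. The points of pair 3 lie to the right of 0 for 36 of the 39 genes.

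Pair 3 also stood apart in sex-linked transcripts, which were not used in choosing the genes. Eif2s3y, a Y-linked gene, was at 3.91, 2.26, -2.02 and 4.09 in pairs 1 to 4. Xist, the RNA that silences 1 X chromosome in female cells, was at -2.71, -0.23, 2.48 and -2.80. Pairs 1, 2 and 4 thus had more Y-linked RNA in the mutant, and pair 3 had more in the wild type. With the mean Y-linked ratio of each pair as a covariate in limma's fit, 14 junction genes were below 0 and 25 above, with a median of 0.07. Of all genes, 42.3% were below 0 in that fit, with a median of 0.02. These are fitted values at a Y-linked ratio of 0, and pair 3 alone lay on the other side of it. Pair, sex difference and any other property of pair 3 cannot be told apart with 1 pair of the opposite kind. Without pair 3, 30 junction genes were below 0 and the median was -0.21. In that fit 15 had an unadjusted p under 0.05 in the lower direction (5.10% of all genes did). Pair 3 was the highest pair for 31 of the 39, so leaving it out has to lower the means of those 31. With pair 1, 2 or 4 left out instead, 0, 0 and 1 junction genes had such a p. Without pair 1, 19 were below 0 and 20 above. The count of 15 thus depends on which pair is left out. None of the 39 passed the adjusted test without pair 3 either.

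Mdm4, the targeted gene, was at -0.03, -0.06, -0.28 and -0.35 in pairs 1 to 4 (mean -0.18 ± 0.07, SE, n = 4; limma adjusted p = 0.471). Its mean was -0.00 with the mutant RNA in Cy5 and -0.36 with it in Cy3. The sources used here do not give the deleted part or the position of this probe against it, so the value does not check the labels.

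Among the 16 claudins, the lowest means were those of Cldn8, Cldn4 and Cldn7, which are claudins of the collecting duct, and the highest were those of Cldn10, Cldn2, Cldn16 and Cldn19, which are claudins of nephron tubules. In all, 9 claudins had a mean below 0 and 7 above, with a median of -0.05. With median centring 6 were below 0 and 10 above, and recentred 10 and 6.

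Cldn8 encodes a claudin that, together with claudin-4, forms a paracellular path for chloride in the collecting duct. It was at -0.90, -0.65, 0.27 and -0.52 in pairs 1 to 4. Its mean of -0.45 ± 0.18 was the lowest of all junction genes (limma adjusted p = 0.469), and pair 3 alone was above 0. Cldn4 was at -0.33, -1.14, 0.15 and -0.37, a mean of -0.42 ± 0.19 (limma adjusted p = 0.501). Pair 2 was the lowest there, and pair 3 again the only one above 0. Cldn7, whose protein also lies along the lateral membrane, was at -0.50, -0.30, 0.22 and -0.62, with a mean of -0.30 ± 0.14 (limma adjusted p = 0.508). The 95% interval of the mean ran from -0.89 to -0.01 for Cldn8, from -0.89 to 0.04 for Cldn4 and from -0.63 to 0.04 for Cldn7. All 3 kept a mean below 0 with median centring and with the Y-linked covariate.

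Cldn3, a sealing claudin of many epithelia, was at -0.27, -0.30, 0.34 and -0.14, with a mean of -0.09 ± 0.11. Its mean was 0.07 with median centring, -0.06 once recentred, and 0.07 with the Y-linked covariate. Cldn9 departed from this order of pairs, at 0.03, -0.21, -0.05 and -0.48 (mean -0.18 ± 0.09, limma adjusted p = 0.548). Cldn6, a claudin of embryonic epithelia, had a mean of -0.13, but it was -0.42 with the mutant RNA in Cy5 and 0.17 with it in Cy3. Cldn5, the main claudin of endothelium, had a mean of -0.20, which pair 4 carried at -0.88. Cldn23 had a mean of -0.16, Cldn1 of -0.01, Cldn11 of 0.01 and Cldn12 of 0.05.

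The nephron claudins lay on the other side of 0. Cldn16, needed for magnesium and calcium uptake in the thick ascending limb, was at 0.21, 0.03, 0.42 and 0.25 (mean 0.23 ± 0.08, limma adjusted p = 0.425). It was well above background in 5 of the 8 wild-type channels and in all 8 mutant channels, so it entered the test through the mutant. Cldn19, its partner in the same segment, was at 0.01, 0.12, 0.34 and 0.18 (mean 0.16 ± 0.07, limma adjusted p = 0.489). Cldn10, an ion-selective claudin of the proximal tubule and thick ascending limb, was at 0.08, -0.39, 0.54 and 1.76. Its mean of 0.50 ± 0.33 was the highest of all junction genes, and its values ran from below 0 in pair 2 to their highest in pair 4 (limma adjusted p = 0.603). Without pair 4 its mean was 0.08. Cldn2, the cation and water pore of the proximal tubule, had a mean of 0.24 and was below 0 in pair 2 as well. Cldn15, a cation pore best known from the intestine, was at 0.22, -0.00, 0.18 and 0.04, with a mean of 0.11 ± 0.06 (limma adjusted p = 0.568).

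Promoter stretches are shown for some claudins that hold an E-box, the short sequence that the epithelial repressors of the Snail and Zeb families bind. RefSeq promoter windows (GRCm38.p6, 250 bases before to 50 after a start site) were found for 25 of the 41 junction genes. The motif CACCTG, read on both strands so that CAGGTG counts too, was in the window of 12 of these 25 (48%), against 21.9% of the 12632 tested genes with a window and 20.2% of all 32851 windows. It was 1 of 7 motifs searched, all chosen after the ratios had been seen. Most claudins with a window lacked it: Cldn3, Cldn4, Cldn6 and Cldn7 held it. Cldn1, Cldn2, Cldn5, Cldn10, Cldn11, Cldn12, Cldn15, Cldn16 and Cldn19 did not. No window was found for Cldn8, Cldn9 and Cldn23. The stretches below are bases upstream of the start site, 5′ to 3′ on the gene's strand, with the motif in capitals.
Cldn4, chr5:134946935-134946993, minus strand: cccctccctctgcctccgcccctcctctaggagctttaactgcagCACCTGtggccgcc
Cldn7, chr11:69965279-69965374, plus strand: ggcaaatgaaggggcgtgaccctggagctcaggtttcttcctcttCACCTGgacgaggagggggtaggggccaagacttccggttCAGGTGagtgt
Cldn6, chr17:23679227-23679322, plus strand: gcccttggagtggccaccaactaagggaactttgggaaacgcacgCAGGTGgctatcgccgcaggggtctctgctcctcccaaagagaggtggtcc

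The stretch of Cldn7 holds the motif in both orientations, and that of Cldn4 ends at the base before the start site. The 12 genes with the motif were Cldn3, Cldn4, Cldn6, Cldn7, Crb3, Dsp, Epcam, F11r, Marveld2, Ocln, Pard6b and Tjp3. All 12 had a mean below 0, with a median of -0.12 and pair medians of -0.31, -0.23, 0.26 and -0.15. Of the 13 without it, 4 were below 0 and 9 above, with a median of 0.11. All 5 nephron genes described here (Cldn2, Cldn10, Cldn16, Cldn19 and Cdh6) were among these 13. The other 16 junction genes had no window and are in neither group. Of these, all that could be tested had a mean below 0 except Pkp2 (0.01), so means below 0 were not particular to the motif. Among all tested genes with a window, 51.0% of those with the motif and 45.4% of those without were below 0. With the Y-linked covariate 4 of the 12 were below 0, and with median centring also 4, or 11 once recentred. The other 6 motifs were AACCNGTT (a grainyhead site, in Cgn and Cldn5 and in 2.09% of windows), its variants AACCGGTT and ACCGGTT (in none of the 25), TATAAA (in 2 of the 25 and 13.6% of windows), GGGCGG (in 22 of the 25 and 35.7% of windows, or 63.3% of tested genes) and the HNF1 site (in none of the 25). A match describes these letters only. AACCGGTT and ACCGGTT overlap each other.

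The other tight junction and polarity genes had small means. Of 9, 8 were below 0 and Tjp1 was above, with a median of -0.05, and 3 were below 0 with median centring or 7 once recentred. Tjp3 encodes a scaffold of the tight junction plaque that is restricted to epithelia. It was at -0.56, -0.33, 0.07 and -0.09 (mean -0.23 ± 0.11, limma adjusted p = 0.516), and its second probe had a mean of -0.24. Cgn, which encodes the plaque protein cingulin, was at -0.64, -0.26, 0.11 and -0.01 (mean -0.20 ± 0.13, limma adjusted p = 0.590), with -0.14 on its second probe. On these brightest probes both genes were lowest in pair 1 and nearer to 0 in pair 4, where their second probes were at -0.24 and -0.21.

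Tjp1, the more widely expressed scaffold that endothelial and mesenchymal cells also use, was at -0.07, 0.14, 0.14 and 0.79. Its mean was 0.25 ± 0.14 (limma adjusted p = 0.559), and its second probe was at 0.23, 0.36, 0.42 and 0.20 with a mean of 0.30. The first probe was led by pair 4, and the second was above 0 in every pair. Ocln, which encodes the strand protein occludin, was at -0.38, -0.14, 0.47 and -0.16, and its mean of -0.05 ± 0.14 was smaller than its error. It was 0.08 with the mutant RNA in Cy5 and -0.18 with it in Cy3. Marveld2, which encodes tricellulin at the meeting points of 3 cells, had a mean of -0.10 and Marveld3, its relative along the strands, of -0.12. Those of the adhesion molecule gene F11r and of the polarity genes Crb3 and Pard6b were -0.02, -0.02 and -0.04, though a second probe of Crb3 was at -0.19.

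The cadherins lay on both sides of 0. Cdh16, the kidney-specific cadherin of tubule and ureteric epithelium, was at -0.73, -0.42, 0.40 and -0.76. Its mean was -0.38 ± 0.20 (limma adjusted p = 0.539), but it was -0.63 with the mutant RNA in Cy5 and -0.13 with it in Cy3, and its second probe had a mean of -0.07. Cdh6, the cadherin of early nephron epithelium and proximal tubule, was at 0.20, 0.15, 0.28 and 0.88, with a mean of 0.38 ± 0.13 (limma adjusted p = 0.434). All its 4 pairs were above 0, though the high value of pair 4 was not on its second probe, which was at 0.28, 0.09, 0.13 and 0.01.

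Cdh1, which encodes E-cadherin of the ureteric tree and the later nephron, was at -0.55, -0.08, 0.48 and -0.00. Its mean was -0.04 ± 0.15, with pairs 1 and 3 far apart on either side. The 95% interval ran from -0.41 to 0.34. On its brightest probe Cdh16 lay below Cdh1 in each pair, but its second probe lay above Cdh1 in pair 1 (-0.18). A difference between these genes was not tested. Epcam, the adhesion protein gene used to mark epithelium in general, was at -0.27, -0.09, 0.44 and -0.65 (mean -0.14 ± 0.17). With median centring the means of Cdh1 and Epcam were 0.12 and 0.02, and once recentred -0.02 and -0.12. With the Y-linked covariate they were 0.18 and 0.13. Cdh3, which encodes P-cadherin, had a mean of -0.05, made of 0.30 with the mutant RNA in Cy5 and -0.39 with it in Cy3.

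Of the 9 desmosome and linker genes, 7 could be tested, and 6 of those had a mean below 0, with a median of -0.07. The balance was 2 below and 5 above with median centring, and 5 and 2 once recentred. Dsp encodes desmoplakin, which ties the desmosome to keratin filaments, and it had the smallest p of the junction genes. It was at -0.56, -0.37, 0.07 and -0.60 in pairs 1 to 4, with a mean of -0.37 ± 0.12 (limma adjusted p = 0.425). Its 95% interval ran from -0.65 to -0.08, the dye orientations gave -0.31 and -0.42, and its mean without pair 3 was -0.51 (limma adjusted p = 0.155).

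The desmosomal cadherin gene Dsg2 had a mean of -0.12, and the dye orientations differed in sign (0.12 and -0.36). Jup, which encodes plakoglobin of both adherens junctions and desmosomes, had -0.08. Pkp3 and Pkp2, genes of the plaque proteins that link cadherins to desmoplakin, had -0.04 and 0.01. The linker genes Ppl and Evpl had -0.07 and -0.02. Pkp1 and Dsc2 were too dim to test: Pkp1 was well above background in 0 of the 8 wild-type and 3 of the 8 mutant channels, and Dsc2 in 4 of each.

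Esrp1 and Esrp2 drive the epithelial pattern of alternative splicing, and both were below 0 under every setting tried. Esrp1 was at -0.57, -0.30, 0.06 and -0.55, with a mean of -0.34 ± 0.11 (limma adjusted p = 0.426) and -0.17 on its second probe. Esrp2 was at -0.26, -0.22, 0.12 and -0.20, with a mean of -0.14 ± 0.08 (limma adjusted p = 0.561). As in Dsp, pair 3 was above 0 and the other pairs were below. Across the 20 junction genes given with all their pairs, only the sign of Cldn15, Cdh1, Epcam, Cldn3 and Ocln turned under any setting, and the other 15 kept theirs. Most of these 20 were named for a small p in the same data, which favours a steady sign. Most of the junction genes given by their means only turned with median centring or the Y-linked covariate, among them Cldn6, Cldn23, Marveld2 and Dsg2.

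**Figure D2:**
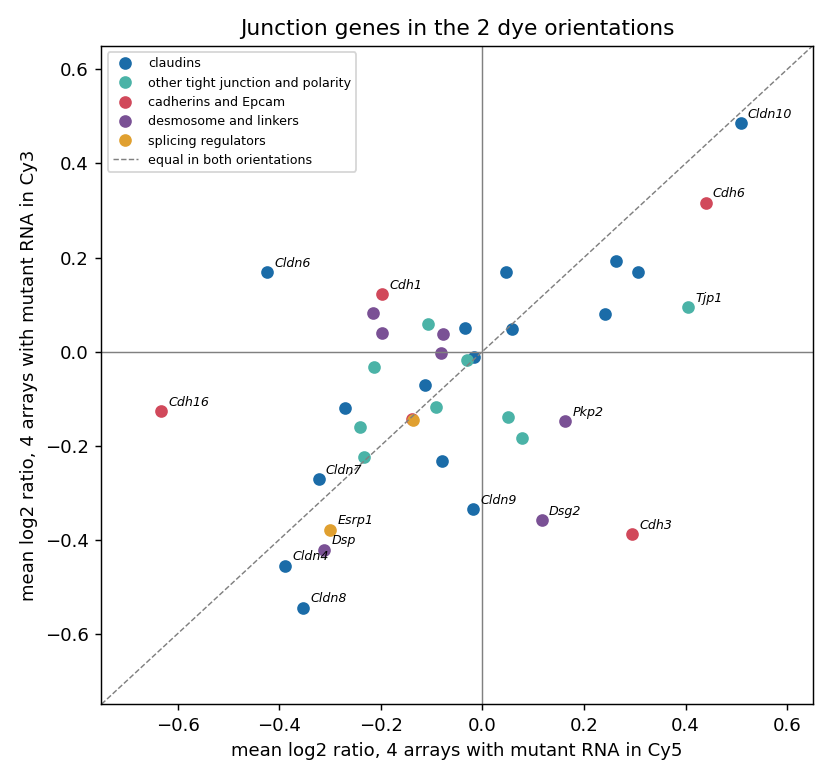
Mean log2 ratio of each junction gene over the 4 arrays with the mutant RNA in Cy5 (x axis) against the 4 arrays with it in Cy3 (y axis), coloured by role, with a dashed line where both are equal. The orientations gave the same sign for 27 of the 39 genes and opposite signs for 12, among them Cldn6, Cdh3 and Dsg2.

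The split between collecting duct and nephron genes was counted over lists made with earlier results of these data known, so their directions are no independent evidence. The 12 junction genes known from ureteric and collecting duct epithelium (Cldn3, Cldn4, Cldn7, Cldn8, Cdh1, Epcam, Crb3, Esrp1, Esrp2, Dsp, Pkp3 and Marveld3) all had means below 0. Their median was -0.14, with pair medians of -0.39, -0.28, 0.24 and -0.29. With median centring 8 of the 12 were below 0, once recentred all 12 were (median -0.22), and with the Y-linked covariate 7 were. The 5 junction genes of nephron tubules (Cldn2, Cldn10, Cldn16, Cldn19 and Cdh6) all had means above 0, with a median of 0.24 and pair medians of 0.10, 0.03, 0.42 and 0.44. Cldn16 was admitted by its mutant channels, which favours a value above 0, and without it (all 16 channels above background) the median of the other 4 was 0.31. The means stayed above 0 under every setting in which they were measured, but their sizes did not hold: the list median was 0.51 with Agilent's processed signals, 0.36 with no background correction and 0.12 with median centring and each pair centred again. Cldn16 alone was at 0.70 with processed signals and at 0.08 with that last setting. Pair 3 was not opposite to the other pairs in these 5 genes. The split also depends on where genes of both tissues were placed. Cdh16 (mean -0.38), of tubule and ureteric epithelium, is in neither list. Cdh1 (mean -0.04), of the ureteric tree and the later nephron, is counted as ureteric only.

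Markers of the cell types of the kidney were read in the same pairs. All 14 ureteric markers had means below 0, from -0.69 to -0.01, with a median of -0.29 and pair medians of -0.53, -0.30, 0.06 and -0.43. The list median was -0.40 with the mutant RNA in Cy5 and -0.10 with it in Cy3. With median centring 10 of the 14 were below 0, once recentred all 14, and with the Y-linked covariate 11. Among them Wnt9b, the ureteric signal that starts nephron formation, was at -0.60 ± 0.15, and the keratin gene Krt8 at -0.42 ± 0.12. All 6 podocyte markers had means above 0 (0.24 to 0.79, median 0.35), as did all 8 stromal markers (0.10 to 0.67, median 0.28) and all 7 macrophage markers (0.03 to 0.36, median 0.21). Of 10 markers of nephron progenitors and the early nephron, 5 were below 0 and 5 above (-0.34 to 0.36, median 0.05). Endothelial markers had a median of 0.01, red cell markers of -0.01 and urothelial markers of 0.04. The part of these markers' shifts in the junction genes' ratios was not tested.

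**Figure D3:**
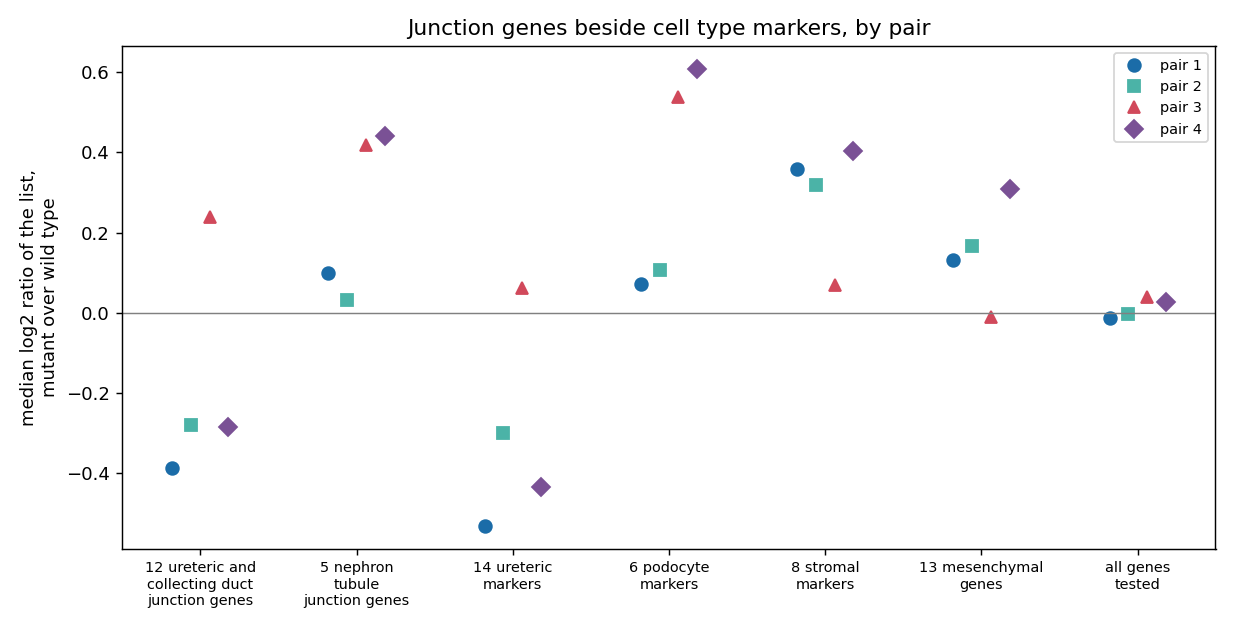
Median log2 ratio of mutant over wild type (y axis) in each kidney pair for the junction genes of ureteric and nephron epithelium, for markers of ureteric epithelium, podocytes and stroma, for mesenchymal genes and for all genes tested. The 12 ureteric junction genes had medians of -0.39, -0.28 and -0.29 in pairs 1, 2 and 4 and 0.24 in pair 3, while the ureteric markers were at 0.06 in pair 3.

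Of 42 other tight junction, angulin and polarity genes, 21 were below and 21 above 0, with a median of 0.00, and 5 had an unadjusted p under 0.05 in each direction. Pard3b, a polarity gene, was at 0.22 ± 0.06, Mpp5, which anchors the Crumbs complex, at 0.18 ± 0.06, and the adhesion molecule gene Jam3 at 0.17 ± 0.05. The 7 other claudin-family genes that could be tested had a median of -0.05. Of 19 adherens junction partners, 12 were below 0, and 6 of the 19 were lower in all 4 pairs, pair 3 included, where no junction gene of the 39 was. Nectin2, an adhesion gene that acts beside the cadherins, was at -0.11, -0.14, -0.20 and -0.31 (limma adjusted p = 0.424). Ctnnd2, which encodes a cadherin-binding catenin, was at -0.27 ± 0.09, Afdn, the actin linker of nectins, at -0.17 ± 0.07, and Camsap3, which anchors microtubules, at -0.15 ± 0.06. With median centring 5 of the 19 were below 0, once recentred 10, and with the Y-linked covariate 9. The median of the 19 was -0.14 with the mutant RNA in Cy5 and 0.01 with it in Cy3.

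Perp stood apart among the desmosome genes outside the 41. It encodes a desmosomal membrane protein and is a known target of the transcription factor p53, which Mdm4 inhibits. It was at 1.55, 0.84, 1.52 and 2.29 in pairs 1 to 4, with a mean of 1.55 ± 0.21 (limma adjusted p = 0.232), well above 0 in each pair. Dsc3 and Pkp4 were at -0.06 and -0.02. Among 10 connexin genes of gap junctions 4 were below 0, and Gjb1 and Gjb5 were at -0.24 and 0.21.

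Regulators and partners of epithelial identity also had a median above 0 in pair 3 alone. Of 28 such genes, 22 were below 0, with a median of -0.19 and pair medians of -0.40, -0.27, 0.20 and -0.17, and 17 were below 0 with median centring or 23 once recentred. The epithelial transcription factor genes Ehf, Tfap2a and Elf5 were at -0.65 ± 0.17, -0.47 ± 0.14 and -0.41 ± 0.15, and the trafficking gene Rab25 at -0.22 ± 0.09. None passed limma's adjusted test. Of 13 mesenchymal cadherins and repressors of epithelial genes, 10 were above 0 and 3 below, with a median of 0.11. Their pair medians were 0.13, 0.17, -0.01 and 0.31. The list median was 0.04 with the mutant RNA in Cy5 and 0.20 with it in Cy3. With median centring all 13 were above 0, once recentred 11, and with the Y-linked covariate 9. Vim, which encodes the mesenchymal filament vimentin, was at 0.25, 0.21, 0.19 and 0.35. Cdh2, which encodes N-cadherin, was at 0.33 ± 0.12. The repressor genes Snai2 and Zeb1, whose products bind E-boxes, were at 0.35 ± 0.14 and 0.20 ± 0.09. A link between these RNAs and the junction genes with the motif was not tested.

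The 10 junction genes with more than 1 probe kept gave the same sign on each of their probes. The sizes differed in either direction. The second probe was nearer to 0 for Cdh16, Cdh6, Esrp1, Cgn and Jup, and farther from 0 for Crb3 (-0.19 against -0.02), Marveld2 (-0.21 against -0.10) and Tjp1. The other probes of Marveld3 were at -0.18 and -0.13, against -0.12, and the probes of Tjp3 were nearly equal.

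**Figure D4:**
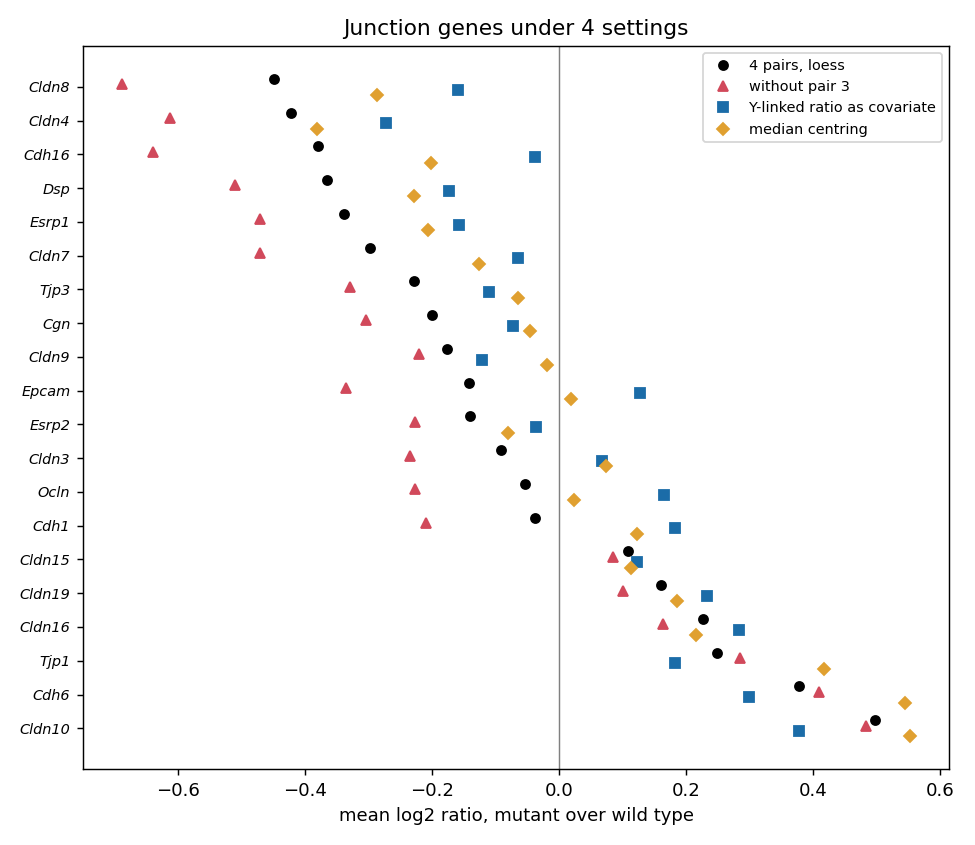
Mean log2 ratio of mutant over wild type (x axis) of the 20 junction genes given with all their pairs, under loess with 4 pairs (black), without pair 3 (red), with the Y-linked ratio of each pair as a covariate (blue) and with median centring of each array (yellow). Cldn8, Cldn4, Cdh16, Dsp, Esrp1 and Cldn7 stayed below 0 under all 4 settings and were lowest without pair 3, while Cdh1 was at -0.04 with 4 pairs and at 0.18 with the covariate.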

How the data were processed

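Whole-kidney RNA of 4 wild-type and 4 mutant samples was measured on 8 2-colour Agilent arrays, all on 1 slide and scan, so that dye orientation cannot be told apart from slide position. The slide format named in the labels differs from the spot layout of the files, which have 62976 spots per array. The layout of the files was used. The scanner files hold spot and background intensity, deposited as Agilent Feature Extraction wrote them (10.7.3.1 per the file headers, 8.5.1.1 per the submitters' processing notes). In the series table the authors deposited log10 ratios (Cy5 over Cy3), which differ from the scanner's by 0.005 or less and are not turned for the dye swap.

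Processing of the median signals used limma 3.58.1 (R 4.3.3): normexp with offset 50, loess with control and outlier spots at weight 0, ratios turned to mutant over wild type, spots and then the 2 arrays of a pair averaged. Probes were kept when well above background in 6 of the 8 channels of a genotype (34594 of 56605), named through RefSeq accessions (58.3% of probes), and the brightest kept probe stood for its gene. In each channel 60.7% to 70.2% of spots were well above background and 0 were saturated, and the number of arrays limits the precision (median standard error 0.0709). A two-sided test of the pair values against 0 used limma's lmFit and eBayes, and p-values were adjusted by Benjamini-Hochberg across 16013 genes. The steps were tested on simulated data. The pair numbers come from the labels and name arrays of the same 2 RNAs, so each pair is 1 value.

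The junction genes, the lists, the tests and the settings were chosen with earlier results of these data known. The naming rule gave all pair values for the 10 lower and 6 higher junction genes with the smallest p and for 11 fixed genes, means for the rest, and up to 4 genes with the smallest p of each list. Some genes that the rule named are left out here. Settings tried were other background corrections, median centring, other filters, the median of probes, the series table, each dye orientation, a replicate block, a Y-linked covariate and leaving out each pair. The 2 settings that centre each pair again were added after seeing the data.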

Additional observations from a re-analysis of the deposited data

How the results depend on the processing

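No junction gene passed limma's adjusted test under any setting. Genes called over the whole array numbered 42 with median centring, all higher, and 39 with 8 arrays and the pair as a replicate block (38 higher, 1 lower; consensus correlation 0.586), against 0 in the values reported. Junction genes lower at an unadjusted p under 0.05 (3 as reported) were 1 with processed signals, 1 with median centring, 1 from the series table, 1 with the Y-linked covariate, 6 with the mutant in Cy3 only, 6 with the replicate block, 6 with median centring and each pair centred again, and 0 to 15 with a pair left out, 15 being without pair 3. Higher ones (2 as reported) were 4 with median centring, 4 with no filter, 4 with the mutant in Cy5 only, 1 with all 16 channels above background, 1 with median centring and centring again, and 1 to 4 with a pair left out. Those lower in all 4 pairs (0 as reported) were 1 in Cy5 only, 2 in Cy3 only and 5 with median centring and centring again. Those higher in all 4 pairs (3 as reported) were 6 with median centring, 5 in Cy5 only and 1 with centring again.

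The median of the junction genes turned to 0.04 with median centring and to 0.07 with the Y-linked covariate, both within the standard deviation of 0.226 between pairs. Without pair 1, 19 were below 0 and 20 above. Of 20 named junction genes 15 kept their sign throughout, but most of the 20 were named for a small p. Most of the other junction genes tested turned with median centring or the Y-linked covariate. Cdh1 turned to 0.12 with median centring, 0.12 in Cy3 only and 0.18 with the covariate, and ran from -0.21 to 0.13 with a pair left out. Epcam turned to 0.019 with median centring and 0.13 with the covariate, and ran from -0.34 to 0.027. Ocln turned to 0.024 with median centring, 0.079 in Cy5 only and 0.17 with the covariate, and ran from -0.23 to 0.056. Cldn3 turned to 0.074 with median centring and 0.068 with the covariate, and Cldn15 to -0.024 with median centring and centring again. With each pair centred again after median centring, Cdh1, Epcam, Ocln and Cldn3 were below 0 (-0.016, -0.12, -0.11 and -0.064). The cause was not tested. Signal over background limits Cldn16, Pkp1 and Dsc2.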
